A study of Mus musculus with 6 samples.

Results

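The 8 genes described here encode proteins that write, copy or oxidize methyl groups on cytosine in DNA, and were chosen by symbol: Dnmt1, Dnmt3a, Dnmt3b, Dnmt3l, Uhrf1, Tet1, Tet2 and Tet3. All 8 were found among the 39253 genes of the count table, and all 8 were among the 16632 genes that passed the filter on low counts. The samples were whole testes taken at PND12 from C57BL/6 mice, 3 of them WT and 3 with a conditional knockout of Tardbp (cKO), with 1 RNA library for each mouse. Tardbp encodes TDP-43, a protein that binds RNA and DNA. According to the study's methods the cKO mice carried Stra8-iCre and had Tardbp floxed in a single copy, with the other copy null. The Stra8 promoter drives Cre in male germ cells from the spermatogonial stage, which removes the floxed exon there, whereas the null allele is not restricted to germ cells. The control libraries came from mice labelled wild type, so effects of the transgene and of the Tardbp alleles cannot be told apart. WT 1, WT 2, WT 3 and cKO 1 belonged to processing batch 2, and cKO 2 and cKO 3 to batch 1, so that batch 1 held no WT library.

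DNA methylation in mammals sits mainly on cytosines of CpG dinucleotides. DNMT1 copies the pattern onto the new strand after replication, and UHRF1 brings it to hemimethylated sites. DNMT3A and DNMT3B add methyl groups to unmethylated DNA, DNMT3L is a partner of theirs without catalytic activity, and TET1, TET2 and TET3 oxidize 5-methylcytosine as a step towards its removal. In the male germ line of the mouse, methylation is erased in primordial germ cells and set again in prospermatogonia before and around birth, when Dnmt3l is abundant. After birth Dnmt1 is expressed in dividing spermatogonia, and de novo methyltransferases are expressed in spermatogonia as well as in other cells of the testis.

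In the cKO libraries the genes split in direction. Tet1 and Tet2 were higher and passed the test, Dnmt3a and Tet3 lay above WT in every cKO library, Dnmt1, Uhrf1 and Dnmt3b lay below WT in every cKO library, and Dnmt3l overlapped. The model of batch and genotype, tested with edgeR at an adjusted p of 0.05, called 2 of the 8 genes, Tet1 and Tet2, both higher, and 0 lower. Among all 16632 genes this model called 16.2%, with 9.24% of the genes lower and 6.91% higher. At an unadjusted p under 0.05 it took in 7 of the 8 genes, 3 lower and 4 higher, against 35.2% of all genes, 18.8% lower and 16.5% higher. DESeq2 with the same terms called those 7 genes after adjustment, and 25.1% of the 15342 genes to which it gave an adjusted p. In the edgeR model with batch the genotype estimate rests on cKO 1 against the 3 WT libraries, while cKO 2 and cKO 3 enter through the spread. The model of genotype alone, in which the 3 cKO libraries count equally but batch is not accounted for, called 6 of the 8 genes, 2 lower (Uhrf1 and Dnmt3b) and 4 higher (Dnmt3a, Tet1, Tet2 and Tet3). Its calls took in 33.8% of all genes, 16.7% lower and 17.1% higher. Over all genes the median log2 fold change was 0.01 with batch and 0.04 without it. All 3 cKO libraries lay below all 3 WT libraries for 3 of the 8 genes and for 27.1% of all genes, and above them for 4 of the 8 genes and for 25.8% of all genes. The shares called were thus high across the whole table, and the counts for the 8 genes are to be read against them. Levels are given as CPM, the estimated counts divided by the TMM-scaled library size and multiplied by 1000000.

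**Figure D1:**
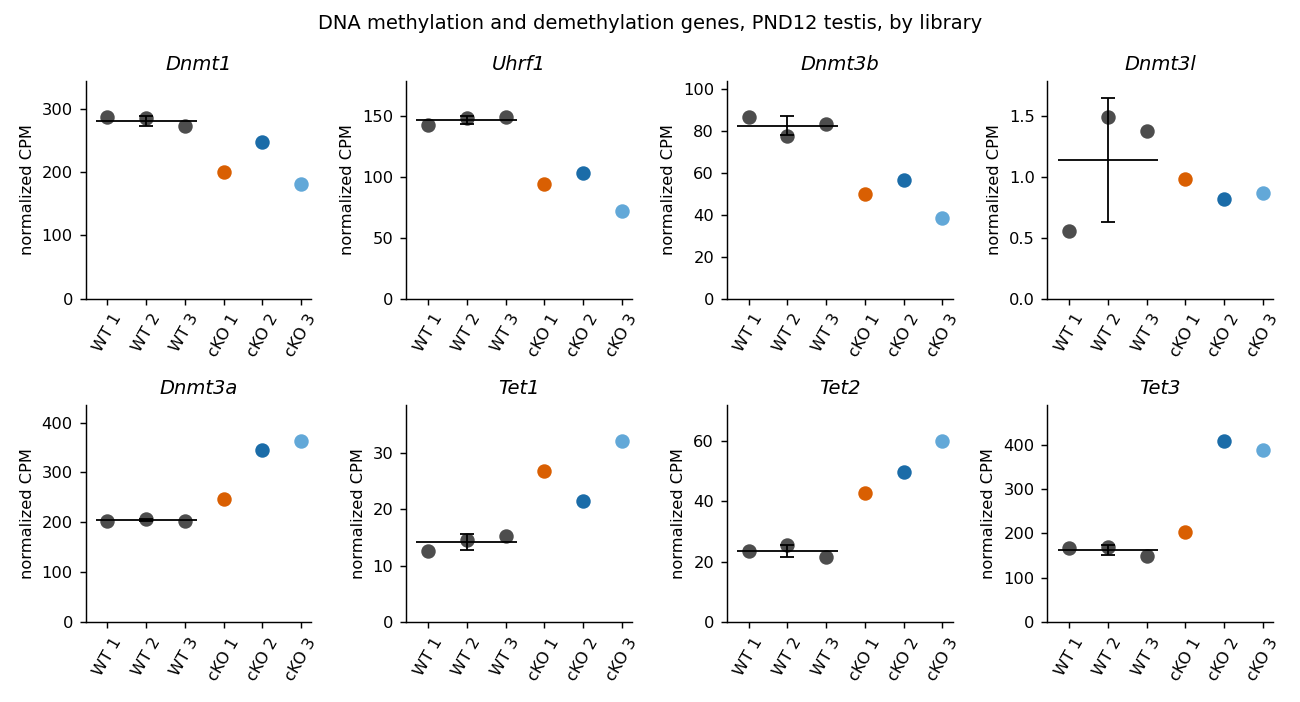
Normalized CPM (linear axes from 0) of the 8 genes in each of the 3 WT (grey) and 3 cKO libraries (orange, cKO 1, batch 2; dark and light blue, cKO 2 and cKO 3, batch 1); the line and bar give the WT mean and SD. The cKO points lie below the WT points for Dnmt1, Uhrf1 and Dnmt3b and above them for Dnmt3a, Tet1, Tet2 and Tet3, and Dnmt3a and Tet3 are nearer to WT in cKO 1 than in cKO 2 and cKO 3.

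The libraries held 30028685 to 43371284 estimated counts. Tardbp itself had 318, 334 and 312 CPM in WT. It was lower in each cKO library, with 255 CPM in cKO 1, 112 CPM in cKO 2 and 137 CPM in cKO 3. Its log2 fold change was -0.33 (SE 0.125, adjusted p = 0.107) with batch and -0.94 (adjusted p = 0.0416) without it, and cKO 2 and cKO 3 were lower than cKO 1 by -1.04 on the log2 scale (adjusted p = 0.00181). Cell type markers moved with genotype. All 12 markers of preleptotene to zygotene spermatocytes fell, with a summed level of 1707 to 2301 CPM in WT and 69.7 to 365 CPM in cKO, and with batch in the model 8 of 10 Sertoli cell markers rose (9 without it), from 5860 to 6837 CPM in WT to 9030 to 15959 CPM in cKO. Of the S phase genes 6 of 12 fell with batch and 10 of 12 without it, with a sum of 1208 to 1270 CPM in WT and 549 to 808 CPM in cKO. In whole testis, fewer cells of a type and less RNA per cell cannot be told apart, and this holds for each value that follows.

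Dnmt1 and Uhrf1, the pair that maintains methylation through replication, had lower values in every cKO library. Dnmt1 (chromosome 9, 20817945 to 20871184, minus strand, GRCm39) measured 286, 285 and 272 CPM in WT 1, WT 2 and WT 3, and 201, 248 and 180 CPM in cKO (in library order). The WT values lay close together, at 281 ± 7.98 CPM (SD, n = 3), and the highest cKO library, cKO 2, was still below the lowest WT library. The log2 fold change was -0.49 (SE 0.167, 95% interval -0.88 to -0.09, adjusted p = 0.0860) with batch and -0.42 (adjusted p = 0.0543) without it, so Dnmt1 passed neither test. Uhrf1 (chromosome 17, 56610275 to 56630489, plus strand) measured 143, 148 and 149 CPM in WT and 94.0, 103 and 71.8 CPM in cKO. No library of either group came near the other, and cKO 3 was the lowest, as it was for Dnmt1. The log2 fold change of Uhrf1 was -0.64 (SE 0.184, 95% interval -1.07 to -0.21, adjusted p = 0.0549) with batch, just outside the threshold, and -0.71 (adjusted p = 0.0163) without it. With batch in limma-trend, the method the study used, Uhrf1 passed just inside the threshold on the deposited log2 values (adjusted p = 0.0493). The ratio of Uhrf1 to Dnmt1 counts within a library, which needs no scaling between libraries, was 0.498 to 0.547 in WT and 0.469, 0.414 and 0.398 in cKO, so Uhrf1 was the further below its WT level.

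Both genes have a start site that carries letters of an E2F site, the motif of the factors that drive S phase genes. These stretches are shown because both genes lay below WT in every cKO library. Dnmt3b lay below WT as well, and its profile was nearer to that of Uhrf1 than the profile of Dnmt1 was, but it had no match. The search covered the words TTTCCCGC, TTTCGCGC, TTTGCCGC and TTTGGCGC on both strands in windows from 250 bases before to 50 bases after each RefSeq start, 15 windows for the 8 genes (table built on GRCm38.p6, placed on GRCm39 by exact match). At least 1 word was in 2.26% of 32851 windows, and among the 8 genes in 1 window of Dnmt1 and 1 of Uhrf1. These 2 windows each held 33 CpG dinucleotides, against a median of 7 over all windows. The share over all windows is therefore not a background of like composition. Other words were searched in these windows too. TGTGTG, which the paper calls a canonical TDP-43 binding site, was in 21.1% of all windows and in 1 of the 15, of Dnmt3l. GGGCGG was in 35.7% of all windows and in 12 of the 15, with a match in all 8 genes. CACGTG was in 7.15% of all windows and in 2 of the 15. Each stretch of 30 bases is given on the strand of its gene, with the match in capitals. The match in Dnmt1 reads TTTCGCGC on the opposite strand, begins at position -219 from the start of that window, and falls in an exon of the canonical transcript, and the match in Uhrf1 begins at position -185 and lies outside the exons of the canonical transcript.
Dnmt1, chr9:20864120-20864149: ggtttccgcgcGCGCGAAAaagccggggtc
Uhrf1, chr17:56611117-56611146: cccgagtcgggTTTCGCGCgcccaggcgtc
The same Dnmt1 window held TTTGGCGC at position 34. At the starts of the GENCODE canonical transcripts, where 2.82% of 21770 windows held an E2F word, 0 of the 8 genes had one. TGTGTG was in 20.7% of those windows and in 2 of the 8 genes. A match of letters is a description and not a binding site, and the E2F motif was chosen after the values were seen.

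Of the 3 de novo methyltransferase genes, Dnmt3b and Dnmt3a lay on opposite sides of WT. Dnmt3b (chromosome 2, 153490861 to 153529650, plus strand) measured 86.3, 77.4 and 83.0 CPM in WT and 50.1, 56.7 and 38.3 CPM in cKO. The groups were well apart, with cKO 3 at 0.465 and cKO 2 at 0.690 of the WT mean. Its log2 fold change was -0.72 (SE 0.206, 95% interval -1.20 to -0.23, adjusted p = 0.0547) with batch and -0.77 (adjusted p = 0.0160) without it. Dnmt3c, a rodent copy of Dnmt3b that is known for methylating young retrotransposons in the male germ line, begins 8.9 kb beyond Dnmt3b on the same strand and was not analysed here. Reads shared by the 2 copies could have been assigned to Dnmt3b, so its level is uncertain to that extent.

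Dnmt3a (chromosome 12, 3856007 to 3964443, plus strand) measured 204, 207 and 203 CPM in WT and 247, 345 and 363 CPM in cKO (in library order). WT varied little, and every cKO library was above it, cKO 1 at 1.21 and cKO 3 at 1.77 times the WT mean. The log2 fold change was 0.27 (SE 0.0835, 95% interval 0.08 to 0.47, adjusted p = 0.0657) with batch and 0.64 (adjusted p = 0.0247) without it. The ratio of Dnmt3a to Dnmt3b counts was 2.36, 2.68 and 2.45 in WT and 4.93, 6.09 and 9.48 in cKO. The lowest cKO ratio was above the highest WT ratio. This follows from Dnmt3a lying above WT and Dnmt3b below it in every cKO library, and is not a separate result.

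Dnmt3l (chromosome 10, 77877781 to 77899456, plus strand) was near the limit of detection, with 18.8, 48.1 and 42.4 estimated counts in WT and 32.4, 27.4 and 35.3 in cKO. These correspond to 0.557, 1.49 and 1.37 CPM in WT and 0.981, 0.818 and 0.866 CPM in cKO. WT 1 was below every cKO library and WT 2 and WT 3 were above them, so the groups overlapped. The log2 fold change was -0.21 (SE 0.573, 95% interval -1.55 to 1.13, adjusted p = 0.816), an interval that takes in a fall and a rise of more than 2-fold, and a difference was not detectable at this depth.

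The 3 Tet genes were all higher in every cKO library than in any WT library. Tet1 (chromosome 10, 62640349 to 62744775, minus strand) measured 12.5, 14.6 and 15.2 CPM in WT and 26.7, 21.5 and 32.1 CPM in cKO. The cKO libraries stood at 1.89, 1.52 and 2.27 times the WT mean, with cKO 2 nearest to it. Tet1 had the largest estimate of the 8 genes with batch, a log2 fold change of 0.92 (SE 0.222, 95% interval 0.40 to 1.44, adjusted p = 0.0365), and the same 0.92 (adjusted p = 0.0144) without it. Tet2 (chromosome 3, 133169436 to 133250900, minus strand), which lacks the CXXC DNA-binding domain that Tet1 and a form of Tet3 carry, measured 23.7, 25.5 and 21.6 CPM in WT and 42.6, 49.8 and 59.9 CPM in cKO. The lowest cKO library was well above the highest WT library. Its log2 fold change was 0.85 (SE 0.142, 95% interval 0.52 to 1.19, adjusted p = 0.0179) with batch and 1.11 (adjusted p = 0.00934) without it, the smallest adjusted p of the 8 genes in both models. Leaving out WT 1, WT 2 or WT 3 with batch in the model gave Tet1 adjusted p values of 0.0808, 0.0894 and 0.0757, and leaving out WT 2 or WT 3 gave Tet2 0.0554 and 0.0532, so that the number of the 8 genes called fell to 1 without WT 1 and to 0 without WT 2 or WT 3. The share of all genes called fell with it, to 5.14%, 0.0722% and 2.55%.

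Tet3 (chromosome 6, 83339355 to 83436066, minus strand) measured 167, 170 and 149 CPM in WT and 203, 408 and 387 CPM in cKO (in library order). The cKO 1 library was 1.25 times the WT mean, and the other two were 2.51 and 2.39 times it. The log2 fold change was 0.32 (SE 0.103, 95% interval 0.08 to 0.57, adjusted p = 0.0722) with batch and 1.04 (adjusted p = 0.0229) without it. The ratio of Tet3 to Dnmt1 counts was 0.549 to 0.598 in WT and 1.01, 1.65 and 2.14 in cKO. The lack of overlap follows from Tet3 lying above WT and Dnmt1 below it in every cKO library. The ratio of Tet1 to Tet2 counts, 0.529 to 0.707 in WT and 0.432 to 0.627 in cKO, overlapped between the groups.

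**Figure D2:**
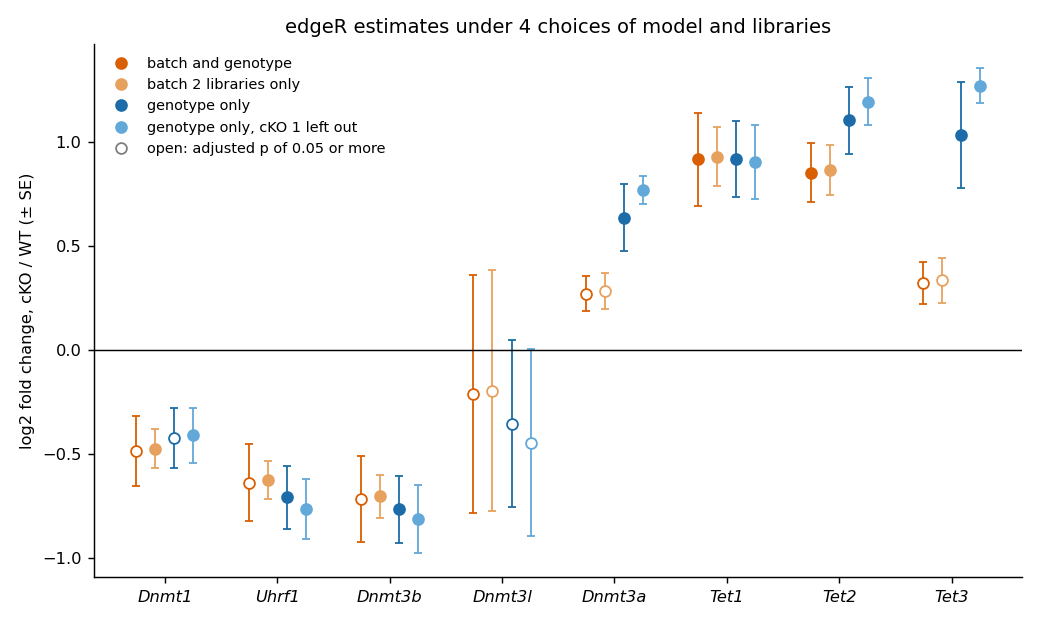
Log2 fold change of cKO over WT (points, with SE) of the 8 genes from edgeR with batch and genotype (dark orange), in the batch 2 libraries only (light orange), with genotype only (dark blue) and with genotype only after leaving out cKO 1 (light blue); filled points have an adjusted p under 0.05. No gene but Dnmt3l has an interval of 1 SE that reaches 0, and for Dnmt3a and Tet3 the orange points lie near 0.3 while the blue points are higher.

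The libraries of the cKO group differed among themselves for 2 of the 8 genes. The batch term of the model, which compares cKO 2 and cKO 3 with cKO 1, was 0.52 for Dnmt3a (adjusted p = 0.00596) and 0.97 for Tet3 (adjusted p = 0.00173) on the log2 scale, and 32.0% of all genes passed this test. For Tet2 it was 0.36 (adjusted p = 0.120), and for Dnmt1, Dnmt3b, Dnmt3l, Uhrf1 and Tet1 it lay between -0.22 and 0.09, with adjusted p values from 0.691 to 0.987. Batch and mouse cannot be told apart here. The summed Sertoli cell markers were 9030 CPM in cKO 1 and 14792 and 15959 CPM in cKO 2 and cKO 3, and Tardbp was also lower in the latter pair, as given above; the part of either in the levels of Dnmt3a and Tet3 was not tested. With cKO 1 alone against the 3 WT libraries, all of batch 2, Dnmt1, Dnmt3b, Uhrf1, Tet1 and Tet2 passed, as did 25.1% of all genes, with the residual spread taken from WT only.

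The level of each gene per kb of its canonical transcript in GENCODE release 39 gives the order of the genes within a library. In WT, on the scale of CPM per kb, Dnmt1 came first at 47.4 ± 1.35 (SD, n = 3), followed by Uhrf1 at 40.3 ± 0.926, Tet3 at 27.3 ± 1.92, Dnmt3a at 21.0 ± 0.225 and Dnmt3b at 19.3 ± 1.06. Tet2 at 2.41 ± 0.201, Tet1 at 1.01 ± 0.101 and Dnmt3l at 0.680 ± 0.303 were far below. This order was the same in all 3 WT libraries, although the ranges of Tet1 and Dnmt3l almost met, with 0.897 to 1.09 for Tet1 and 0.332 to 0.887 for Dnmt3l. In cKO, Tet3 came first in all 3 libraries, at 34.1, 68.6 and 65.1 CPM per kb, against 33.8, 41.8 and 30.4 for Dnmt1, and Uhrf1 and Dnmt3b were at 19.8 to 28.2 and 8.99 to 13.3. In cKO 1 the levels of Tet3 and Dnmt1 were nearly equal. The place of Tet3 depends on the transcript assumed: per kb of the longest protein-coding transcript, 10.904 kb rather than 5.944 kb, Tet3 ranked 5 in WT, at 14.9, and ranked 4, 2 and 2 in cKO 1, cKO 2 and cKO 3. On that scale Dnmt1 ranked 1 in WT and in cKO 1 and cKO 2, and Dnmt3a ranked 1 in cKO 3.

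**Figure D3:**
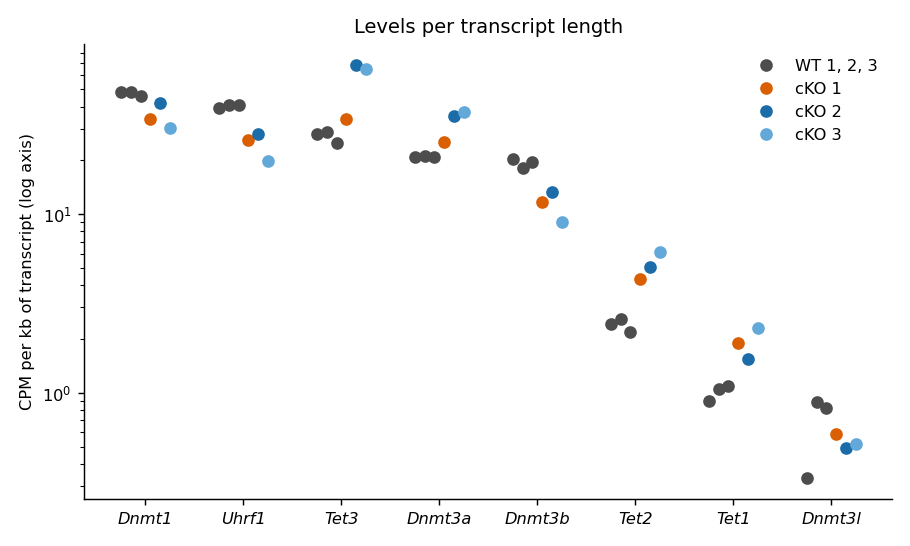
CPM per kb of canonical transcript (log axis) of the 8 genes, ordered by their WT mean, in 3 WT (grey) and 3 cKO libraries (orange, cKO 1; dark and light blue, cKO 2 and cKO 3). Dnmt1 and Uhrf1 lead in WT at 47.4 and 40.3, Tet3 leads in the cKO libraries at 34.1 to 68.6 if its canonical transcript is assumed, and Tet2, Tet1 and Dnmt3l are lowest in all 6 libraries.

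Intron length, compared with these directions after the values were seen, divided the genes in a like way. Dnmt3a, Tet3, Tet2 and Tet1, the 4 that lay above WT, have 97.7, 82.4, 71.5 and 61.5 kb of intron in their canonical transcripts. Dnmt1, Dnmt3b and Uhrf1, the 3 that lay below it, have 40.4, 34.1 and 16.6 kb, and Dnmt3l has 12.1 kb. Of these genes only Tet1 and Tet2 passed with batch. The paper compared introns only among genes with a TDP-43 binding cluster in published mouse brain data. Of these, it reports longer introns in the most upregulated and in the most downregulated genes than in nonregulated ones. Introns of the upregulated genes were slightly longer. Whether the 8 genes have such clusters was not examined. With 8 genes this is a description, with no test.

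Dnmt3b and Uhrf1 had the most similar profiles of any pair of the 8 genes. Likeness was measured as the root mean square difference of log2 CPM over the 6 libraries after centring each gene on its own mean, so that 0 means the same profile. For Dnmt3b and Uhrf1 it was 0.0702, followed by Dnmt1 and Uhrf1 at 0.166, Dnmt1 and Dnmt3b at 0.194, and Tet1 and Tet2 at 0.220. Dnmt3b and Tet2 were farthest apart at 0.986. Among 12845 genes (12846 for Dnmt3l, which was itself below the level asked of the others), the nearest profiles were those of Cdpf1 (0.0399) and Arvcf (0.0519) for Dnmt1, Depdc7 (0.0460) and Zswim7 (0.0467) for Uhrf1, and Tubb4b (0.0392) and Shmt1 (0.0517) for Dnmt3b. For Dnmt3a they were Kdm5c (0.0214) and Orai3 (0.0254), for Tet3 Trrap (0.0242) and Ccdc97 (0.0292), for Tet2 Zfhx4 (0.0648) and Vamp1 (0.0658), for Tet1 Tor4a (0.0575) and Adam19 (0.0636), and for Dnmt3l Klhl4 (0.168) and Megf6 (0.215). With 6 libraries in 2 groups, a small distance says that the levels of 2 genes differed between the libraries in the same way.

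The partners of the maintenance pair included genes that fell. Of 8 such genes, 4 fell and none of the rest passed with batch in the model. The median log2 fold change was -0.50, against 0.01 over all genes, and without batch 6 of the 8 fell. Over all genes 9.24% were called lower and 6.91% higher with batch, and 16.7% and 17.1% without it. The counts for this list and the lists below are to be read against these shares. Hells, a chromatin remodeller needed for methylation, measured 485, 501 and 476 CPM in WT and 194, 75.7 and 49.0 CPM in cKO, a log2 fold change of -1.32 (adjusted p = 0.0180). The other 3 that fell were Pcna (-0.66), the replication clamp, Lig1 (-0.97), the DNA ligase that joins the new lagging strand, and Usp7 (-0.34), a deubiquitinase that binds DNMT1. Cdca7, Cdca7l, Uhrf2 and Zbtb24 did not pass. Summed over the 8 genes, the level was 1407 to 1420 CPM in WT and 562 to 866 CPM in cKO. The S phase markers beside them, given above, moved in the same direction as Dnmt1, Uhrf1 and Dnmt3b, and their part in these values was not tested.

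Among 15 tested genes that guide de novo methylation in germ cells, 2 fell and 0 rose, with a median of -0.26. These were Setdb1, a histone H3 lysine 9 methyltransferase (-0.58, adjusted p = 0.0214), and Tex15, which acts with piRNA factors in fetal germ cells (-1.85, adjusted p = 0.0284). Without batch 6 fell and 1 rose. Of all genes 9.24% were called lower with batch and 16.7% without it, so the 2 lower with batch are not read as a result about this list. Tex15 measured 529, 683 and 481 CPM in WT and 157, 80.0 and 38.6 CPM in cKO. The summed markers of preleptotene to zygotene spermatocytes were 365, 161 and 69.7 CPM in cKO 1, cKO 2 and cKO 3. Their part in the level of Tex15 was not tested.

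The genes around the TET enzymes were divided. Of 18 tested partners of demethylation and base excision repair, 2 fell and 3 rose, with a median of 0.03, and without batch 4 fell and 5 rose. Ogt, the O-GlcNAc transferase that binds TET proteins, measured 271, 296 and 252 CPM in WT and 475, 336 and 393 CPM in cKO, a log2 fold change of 0.80 (adjusted p = 0.0152). Cxxc5, a zinc finger protein that binds CpG-rich DNA, was higher by 0.73 (adjusted p = 0.0363), and Cxxc4, a relative whose gene lies near Tet2, by 1.17 (adjusted p = 0.0469), though its cKO and WT libraries overlapped, and it is named here after its values were seen. Hmces (-0.92, adjusted p = 0.0199) and Wdr76 (-0.77, adjusted p = 0.0373) fell. Tdg, the glycosylase that removes the oxidized bases made by TET enzymes, measured 85.7, 78.8 and 91.7 CPM in WT. In cKO 1, cKO 2 and cKO 3 it measured 89.8, 42.0 and 43.0 CPM, so its cKO libraries were far apart. The log2 fold change of Tdg was 0.07 (adjusted p = 0.661) with batch and -0.55 (adjusted p = 0.169) without it. Its batch term was -1.08 (adjusted p = 0.00125).

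Of 7 genes for proteins that read methylated CpG, 2 rose, Zbtb4 (0.65, adjusted p = 0.0195) and Mbd2 (0.54, adjusted p = 0.0408), and 0 fell, with a median of 0.23. Without batch 4 rose and 0 fell. Of 6 genes for proteins that bind unmethylated CpG 0 passed with batch in edgeR (median -0.01; 1 lower and 0 higher at an unadjusted p under 0.05), and 1 rose without it. In the methyl donor cycle, which supplies S-adenosylmethionine, 3 of 11 genes fell, Ahcy, Shmt1 and Mtr, with a median of -0.26 over the list, and without batch 1 fell. Ahcy, which clears S-adenosylhomocysteine, measured 213, 199 and 211 CPM in WT and 154, 30.1 and 29.3 CPM in cKO. Its cKO libraries were far apart, and its log2 fold change was -0.43 (adjusted p = 0.0276) with batch and -1.55 (adjusted p = 0.0846) without it.

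**Figure D4:**
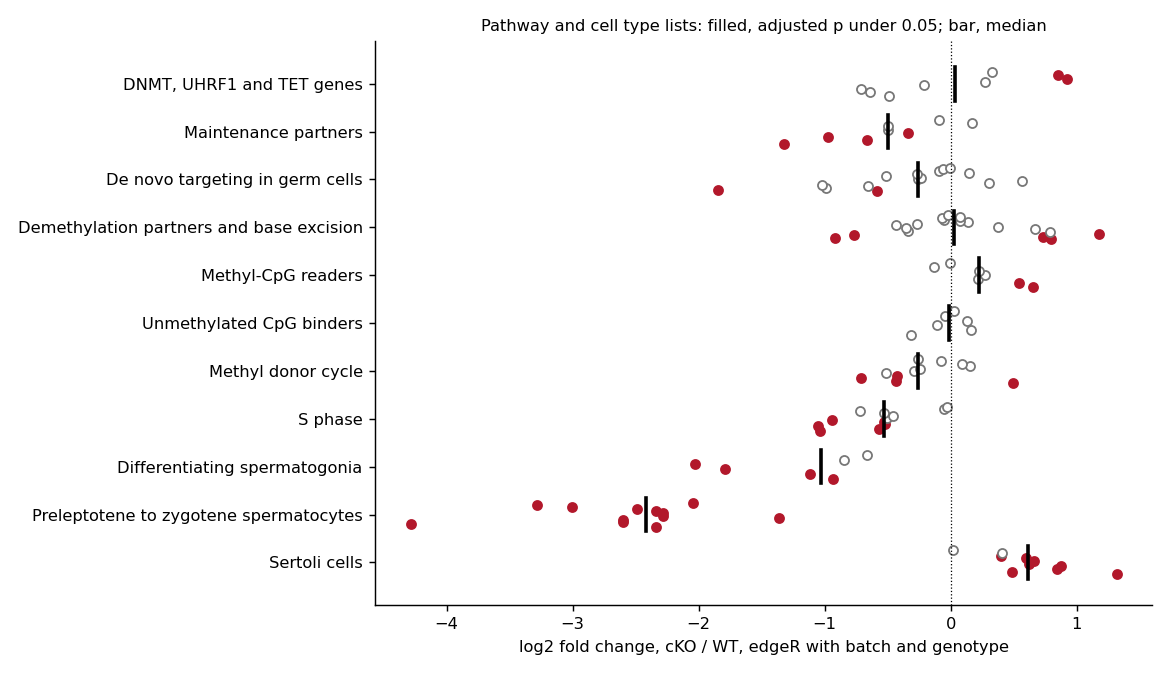
Log2 fold change of cKO over WT from edgeR with batch and genotype (horizontal axis) for each gene of the 8 described here (top) and of 10 lists of pathway genes and cell type markers; filled red points have an adjusted p under 0.05, open points do not, and the bar is the median of the list. The 12 markers of preleptotene to zygotene spermatocytes all lie below 0 with a median of -2.42, the Sertoli cell markers have a median of 0.61, and the DNMT, UHRF1 and TET genes lie on both sides of 0, from -0.72 to 0.92.

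Markers of the other cell types give the setting of these values. Of 6 markers of differentiating spermatogonia 4 fell with batch (median -1.03) and 5 without it (median -1.23), with a sum of 538 to 591 CPM in WT and 154 to 240 CPM in cKO, whereas of 9 markers of undifferentiated spermatogonia 0 fell and 1 rose with batch (median 0.16), and 1 fell and 4 rose without it (median 1.02). The latter summed to 268 to 282 CPM in WT and 258 to 410 CPM in cKO. With batch in the model, interstitial mesenchyme had 2 of 5 markers higher, Leydig cells 1 of 6 and endothelium 1 of 5. Without batch these counts were 2, 1 and 2 higher. Of the markers of peritubular myoid cells, macrophages, blood and pachytene spermatocytes 0 passed in edgeR with batch. At an unadjusted p under 0.05, 1 macrophage marker was higher. Without batch 1 myoid marker was lower, 3 macrophage markers were higher, 1 pachytene marker was lower and 0 blood markers passed. Only 3 of the 6 pachytene genes were tested, with a median of -0.93 with batch and -1.34 without it. They summed to 9.09 to 12.8 CPM in WT and 2.82 to 6.96 CPM in cKO. The part of these cell types in the levels of the 8 genes was not tested.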

How the data were processed

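RNA from whole testes was sequenced by the authors as stranded poly(A) libraries, single-end. Per the labels and methods, reads were demultiplexed with bcl2fastq 2.20, and Salmon 1.2.0 mapped them to NCBI mouse transcripts, using GRCm39 as a decoy. The deposited expected counts, which the authors summed per gene with tximport, share reads between similar genes. The deposited log2 values are the authors' TMM-normalized log2 CPM (edgeR 3.32.1, limma 3.46.0, R 4.0.4 in the submitters' processing notes).

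Expected counts were rounded and tested in edgeR 4.0.16 (R 4.3.3) by quasi-likelihood, with TMM, batch and genotype, over 16632 genes with at least 0.5 CPM in at least 3 libraries, with Benjamini-Hochberg adjustment over all of them. The test was checked on simulated data. Libraries held 30028685 to 43371284 counts, so the spread between mice limits precision more than depth does, except for Dnmt3l. Alternatives were other model terms, DESeq2 1.42.0, limma 3.58.1, other normalizations and filters, and leaving out libraries. The members and lists were chosen with earlier results of these data known. Named genes are the 8 members, Tardbp, up to 4 genes of each list with the smallest p, and the 2 nearest profiles of each member among genes whose mean log2 CPM reached 1. Cxxc4, Tdg, Dnmt3c and the maintenance partners that did not pass are named outside this rule. A gene of the methyl donor list that this rule takes in is not reported here. Positions and introns come from GENCODE on GRCm39 and promoters from RefSeq, read with Python 3.11.15 and pandas 2.3.3. Figures were drawn with matplotlib 3.10.9.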

Additional observations from a re-analysis of the deposited data

Results flagged for a closer look

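The cKO libraries differed between batches for Dnmt3a and Tet3 by a test of the batch term, which sets cKO 2 and cKO 3 against cKO 1. The difference was 0.5201 on the log2 scale for Dnmt3a (adjusted p = 0.00596, edgeR) and 0.9697 for Tet3 (adjusted p = 0.00173, edgeR). Both genes were higher than WT in all 3 cKO libraries.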

How the results depend on the processing

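With batch and genotype in edgeR, 2 genes passed, 0 lower and 2 higher. Without the batch term 6 passed (2 lower, 4 higher), in the batch 2 libraries alone 5 (3 lower, 2 higher), with DESeq2 7 (3 lower, 4 higher), and with no filter on low counts 5 (3 lower, 2 higher). With limma-trend, on recomputed or on deposited log2 values, 3 passed (1 lower, Uhrf1, and 2 higher). DESeq2 size factors, library size alone and a mean of at least 1 CPM left 2. Of all genes, the edgeR model with batch and genotype called 16.2%, that without the batch term 33.8%, DESeq2 25.1%, and the fit with no filter 11.6%. With limma-trend the share was 16.1% on recomputed and 15.8% on deposited log2 values. With DESeq2 size factors, library size alone and a mean of at least 1 CPM it was 16.0%, 15.4% and 17.7%. The replicate block gave 1 (0 lower, 1 higher) with the batch term and 6 (2 lower, 4 higher) without it. It called 7.32% of all genes with the batch term and 25.8% without it. In the block with batch the log2 fold change of Dnmt3l turned to 0.81. Same-numbered libraries had deviations from their group means correlated at -0.0973, -0.0628 and 0.00775, which gives no sign of pairing by number. The cKO deviations also hold the split between batches, which WT does not share, so these values cannot exclude pairing. Leaving out 1 library in turn gave 0 to 7 genes passing over both models (0 to 3 lower, 0 to 4 higher), and 5 with batch without cKO 2 or cKO 3. The share of all genes called moved too, from 0.00601% to 61.8% over these fits, the lowest without WT 2 and the highest without cKO 1, both with genotype only. Dnmt3l ran from -0.69 to 0.81 over all 22 alternatives, being 0.0327 without WT 2, and no other gene changed sign. A fit with batch could not be made without cKO 1, since batch and genotype are then the same split.

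The depth limits Dnmt3l, with 18.8 to 48.1 counts. Batch 1 has no WT library, and the null allele was present in all cells. The libraries came from whole testis, so levels in germ cells and in other cells cannot be told apart.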
